A study of Mus musculus with 4 samples.

Results

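The genes described here mark the medium spiny neurons of the striatum, the projection neurons that make up most of that nucleus. They were taken by symbol as Drd1, Ppp1r1b, Adora2a, Rgs9, Pde10a, Penk, Tac1, Gpr6 and Pdyn, through the gene identifiers of the deposited count table, and all 9 were found among its 12700 genes. The rule itself uses no measured value, but it was written with earlier results of these libraries known. The study compared C57BL/6 mice lacking Ids, the lysosomal iduronate 2-sulfatase whose loss causes mucopolysaccharidosis type II (Hunter syndrome), with wild type littermates at 9 months of age. The cerebral cortex (Cx) and a block of midbrain, diencephalon and hippocampus (M) were dissected, and the RNA of 7 mice was pooled for each library. CxH and MH carry the label Ids-/- and CxWT and MWT the label wild type, with 1 library for each label. The study's methods count the striatum with the diencephalon, so that striatal tissue belongs to M and not to Cx by the dissection.

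Medium spiny neurons integrate cortical and thalamic input under the control of dopamine from the midbrain. Neurons of the direct pathway carry the D1 dopamine receptor and release substance P and dynorphin. Neurons of the indirect pathway carry the D2 dopamine and the A2a adenosine receptor and release enkephalin. Both kinds turn receptor signals into cyclic AMP, and share the enzymes and regulators that act on it. Outside the striatum, the peptide genes Penk, Tac1 and Pdyn are also known from hypothalamus, midbrain, cortical interneurons or hippocampus, and Ppp1r1b and Pde10a from some cortical neurons.

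Between 16380080 (MWT) and 23475080 (CxH) reads were counted on genes, and 3 reads, the upper limit that a count of 0 allows, correspond to between 0.0779 and 0.104 RPM, reads per 1000000 aligned reads. Ids had 135 RPM in CxH and 354 in CxWT, but 368 in the library labelled MH and 155 in the library labelled MWT, so in the libraries labelled M the level of the disrupted gene goes against the label. Markers of the areas also went against the labels. The 12 cortical excitatory neuron markers summed to 1893 RPM in CxH and 1770 in MH, against 358 in CxWT and 302 in MWT. The 13 markers of thalamus, midbrain and hypothalamus in the table summed to 39.5, 55.6, 576 and 510 RPM in the same order. The library labelled MH was thus high in cortical and low in midbrain and diencephalic markers, and the library labelled CxWT was the reverse. By these values CxH and CxWT, and likewise MH and MWT, differed in both Ids and area markers. CxH and MH, and likewise CxWT and MWT, differed in Ids and were close, but not equal, in the summed area markers. None of the 12 cortical markers was called in these pairs by the thresholds given below. Of the 13 other markers, 1 was called higher and 3 lower in CxH vs. MH, where 3.50% of all genes were called. In CxWT vs. MWT 2 were called higher and all 13 had ratios above 0, where 7.54% of all genes were called. CxH and MWT, and likewise MH and CxWT, were alike in Ids and differed in area markers. In CxH vs. CxWT and MH vs. MWT, genotype and tissue can therefore not be told apart, and whether labels were exchanged was not tested. Libraries are named below by these labels, and every direction is between the libraries so labelled. With 1 library per label, a test on reads compares 2 libraries and not the conditions, and intervals and standard errors cover counting error only. In pooled tissue, fewer cells of a type and less RNA per cell cannot be told apart.

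All 9 genes had reads in all 4 libraries, those labelled Cx included. Of the 9 genes, 7 had their higher levels in the libraries labelled CxH and MH and their lower levels in CxWT and MWT, without overlap between these pairs of libraries, as did 24.3% of all genes. These 7 were Drd1, Adora2a, Gpr6, Ppp1r1b, Rgs9, Pde10a and Penk. CxH was the highest library for 5 of the 7, while Rgs9 was highest in MH and Pde10a did not differ between CxH and MH beyond counting error. Pdyn was highest in CxH, but its level in MH did not differ from that in CxWT beyond counting error, and Tac1 was separated the other way, with CxH and MH both below CxWT and MWT, as were 36.9% of all genes. Summed over the 9 genes, the level was 1066 RPM in CxH and 926 in MH, against 444 in CxWT and 424 in MWT. Following the study's methods, calls rest on Poisson counts and a likelihood ratio test, with p below 0.05 and a log2 ratio of 0.7 or more in either direction. In CxH vs. CxWT, 7 of the 9 genes were called, all of them higher in CxH, where 20.9% of all genes tested were called, 9.46% higher and 11.5% lower. In MH vs. MWT all 9 were called, 8 higher and 1 lower in MH, where 25.0% of all genes were called, 12.3% higher and 12.7% lower. Which direction had more calls over all genes depended on the scaling in both pairs. By pathway, all 3 genes of the indirect pathway (Adora2a, Gpr6 and Penk) and all 3 genes of both kinds of neuron (Ppp1r1b, Rgs9 and Pde10a) were called higher in both, and of the 3 genes of the direct pathway Drd1 was called higher in both, Pdyn in MH vs. MWT only, and Tac1 in neither. All 4 pairs that set CxH or MH against CxWT or MWT called the same 7 genes higher, as they did 4.90% of all genes. The median log2 ratio of the 9 genes was 1.14 in CxH vs. CxWT and 1.10 in MH vs. MWT, beside medians over all genes of -0.093 and -0.066. These pairs share no library, but by the study's methods each brain gave both areas, so that by their labels CxH and MH share their mice, as do CxWT and MWT, and the pairs are not independent.

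**Figure D1:**
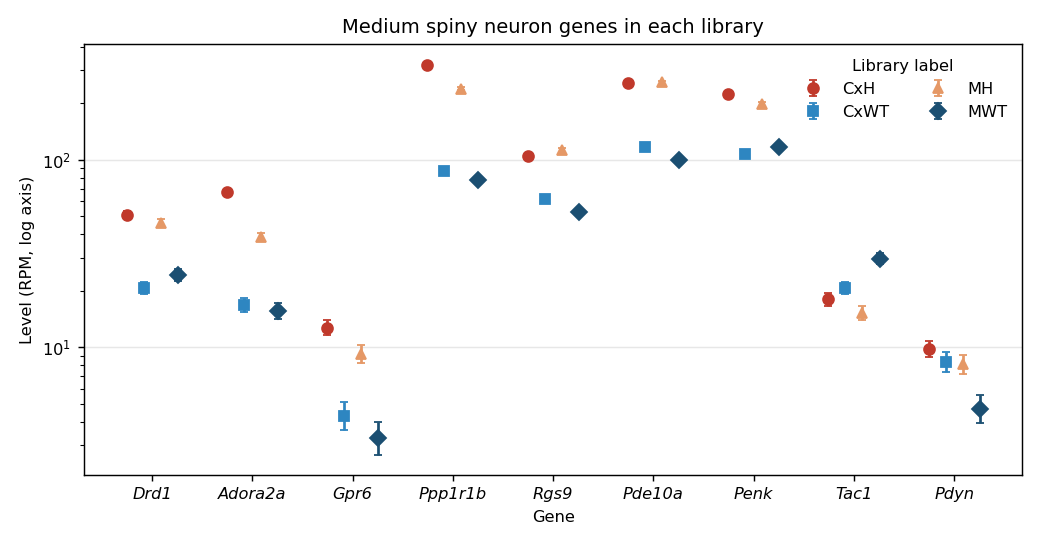
Level of each medium spiny neuron gene (RPM, log axis) in the 4 libraries, marked by label, with bars for the 95% exact Clopper-Pearson interval. For 7 genes CxH and MH lie above CxWT and MWT, as for 24.3% of all genes, while Tac1 is highest in MWT at 29.6 RPM and Pdyn is lowest there at 4.70 RPM.

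The receptors among the 9 genes all rose in CxH vs. CxWT and in MH vs. MWT. Drd1, named Drd1a in the annotation, encodes the D1 dopamine receptor, which stimulates cyclic AMP formation. It lies on chromosome 13 from 54146555 to 54151027 (mm9, minus strand) and had 50.7 RPM in CxH and 46.1 in MH, against 20.7 in CxWT and 24.3 in MWT. Its log2 ratio was 1.29 ± 0.064 in CxH vs. CxWT and 0.93 ± 0.065 in MH vs. MWT, where ± is the standard error from counting. The order of its levels was thus CxH, MH, MWT and CxWT, and neighbours in that order differed by at most 0.23 on the log2 scale except across the step from MH to MWT.

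Adora2a, the A2a adenosine receptor of the indirect pathway, showed the largest ratio of the 9 genes in CxH vs. CxWT. It lies on chromosome 10 from 74779688 to 74797533 (plus strand). Its level was 67.3 RPM in CxH and 16.8 in CxWT, a log2 ratio of 2.0 ± 0.067, which lay above that of 99.0% of all genes. It had 38.8 RPM in the library labelled MH and 15.6 in that labelled MWT, a log2 ratio of 1.31 ± 0.078. Adora2a was also the only one of the 9 called in CxH vs. MH, at 0.80 ± 0.047, where 3.50% of all genes were called, 2.43% higher and 1.06% lower. Corrected for GC content and length, that ratio was 0.60 and no longer called. CxWT and MWT did not differ beyond counting error for this gene (0.11 ± 0.091).

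Gpr6, an orphan receptor that raises cyclic AMP and is known from indirect pathway neurons, was the gene with the fewest reads in MWT. It lies on chromosome 10 from 40789795 to 40792091 (minus strand), and its reads numbered 490 in CxH and 344 in MH, against 145 in CxWT and 95 in MWT. In the same order these correspond to 12.7, 9.21, 4.31 and 3.28 RPM. The log2 ratio was 1.56 ± 0.14 in CxH vs. CxWT and 1.49 ± 0.17 in MH vs. MWT, and these ratios lay within 1 standard error of each other.

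The next 3 genes act inside the cell in both kinds of medium spiny neuron. Ppp1r1b encodes DARPP-32, which inhibits protein phosphatase 1 once it is phosphorylated downstream of dopamine. On chromosome 11 from 98209718 to 98219110 (plus strand), it had 320.1 RPM in CxH and 239 in MH, against 87.2 in CxWT and 77.8 in MWT. Its log2 ratio was 1.88 ± 0.030 in CxH vs. CxWT and 1.62 ± 0.034 in MH vs. MWT, above those of 98.7% and 97.7% of all genes. A non-coding RNA gene overlaps it on the opposite strand, and whether strand was used in counting is not given in the sources used here.

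Rgs9, a regulator that ends G protein signaling at dopamine and opioid receptors of these neurons, gave the smallest called ratio in CxH vs. CxWT. It lies on chromosome 11 from 109086669 to 109159443 (minus strand). It had 105 RPM in CxH and 112 in MH, against 61.8 in CxWT and 52.4 in MWT. The log2 ratio was 0.76 ± 0.039 in CxH vs. CxWT and 1.10 ± 0.043 in MH vs. MWT. The ratio in CxH vs. CxWT lies just beyond the threshold, and an exact test that assumed a coefficient of variation of 0.2 between pools did not call it.

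Pde10a encodes a phosphodiesterase that breaks down cyclic AMP and cyclic GMP and is enriched in the striatum. It lies on chromosome 17 from 8718237 to 9179513 (plus strand) and overlaps 3 pseudogenes on the opposite strand. CxH and MH did not differ beyond counting error, with 258 and 259 RPM and a log2 ratio of -0.0087 ± 0.021. CxWT had 116 RPM and MWT 100.2 RPM. The log2 ratio was 1.14 ± 0.027 in CxH vs. CxWT and 1.37 ± 0.031 in MH vs. MWT.

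The 3 peptide genes did not move together. Penk encodes proenkephalin, the precursor of the enkephalins, and lies on chromosome 4 from 4060678 to 4065966 (minus strand), where a non-coding RNA gene overlaps it on the opposite strand. It had 225 RPM in CxH and 199 in MH, against 107 in CxWT and 116 in MWT. Penk rose with a log2 ratio of 1.07 ± 0.029 in CxH vs. CxWT and 0.77 ± 0.030 in MH vs. MWT. The call in MH vs. MWT was lost with an assumed coefficient of variation of 0.2.

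Tac1 encodes the precursor of substance P and neurokinin A. On chromosome 6 from 7505071 to 7512973 (plus strand), it had 18.0 RPM in CxH and 15.3 in MH, against 20.8 in CxWT and 29.6 in MWT. The libraries with the lower levels were those in which most of the other genes were high. It fell in MH vs. MWT, with a log2 ratio of -0.96 ± 0.078, and in CxH vs. CxWT it had -0.21 ± 0.077 and was not called. With the log2 ratios corrected for GC content and transcript length, Tac1 was no longer called in MH vs. MWT (-0.37). The ratio in CxH vs. CxWT then changed sign, to 0.015.

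Pdyn, the precursor of the dynorphins, lies on chromosome 2 from 129512301 to 129525580 (minus strand) and had 9.79 RPM in CxH and 8.11 in MH, against 8.36 in CxWT and 4.70 in MWT. The level in MWT stood below the other 3 libraries, whose 95% intervals overlapped. Its log2 ratio was 0.79 ± 0.15 in MH vs. MWT, which was called, and 0.23 ± 0.11 in CxH vs. CxWT, which was not. In MH vs. CxWT it was -0.044 ± 0.12. The call in MH vs. MWT did not hold with a coefficient of variation of 0.2.

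CxH vs. MH and CxWT vs. MWT set libraries of the same genotype label against each other, which were also close, but not equal, in their summed area markers and unlike in Ids. Of the 9 genes, 1 was called in each. Adora2a was higher in CxH than in MH, where 3.50% of all genes were called, 2.43% higher and 1.06% lower. Pdyn was higher in CxWT than in MWT, at 0.83 ± 0.15, where 7.54% of all genes were called, 5.43% higher and 2.11% lower. An assumed coefficient of variation of 0.2 between pools left neither call. The other 8 genes lay between -0.10 (Rgs9) and 0.47 (Gpr6) in CxH vs. MH. In CxWT vs. MWT they lay between -0.51 (Tac1) and 0.39 (Gpr6). In CxH vs. MWT, 8 of the 9 genes were called higher in CxH and Tac1 lower (-0.72 ± 0.074, but -0.68 and not called with TMM factors), where 30.7% of all genes were called, 15.6% higher and 15.1% lower. Between MH and CxWT, 7 were called higher and none lower in MH, where 15.3% of all genes were called, 6.41% higher and 8.89% lower. The median log2 ratio of the 9 genes came to 0.24 for CxH vs. MH, to 0.16 for CxWT vs. MWT, to 1.06 for CxH vs. MWT and to 1.09 for MH vs. CxWT. Corrected for GC content and length, the median for CxWT vs. MWT changed sign, to -0.068, with 4 of the 9 genes above 0. All 6 pairs draw on the same 4 libraries, and each library enters 3 of them.

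**Figure D2:**
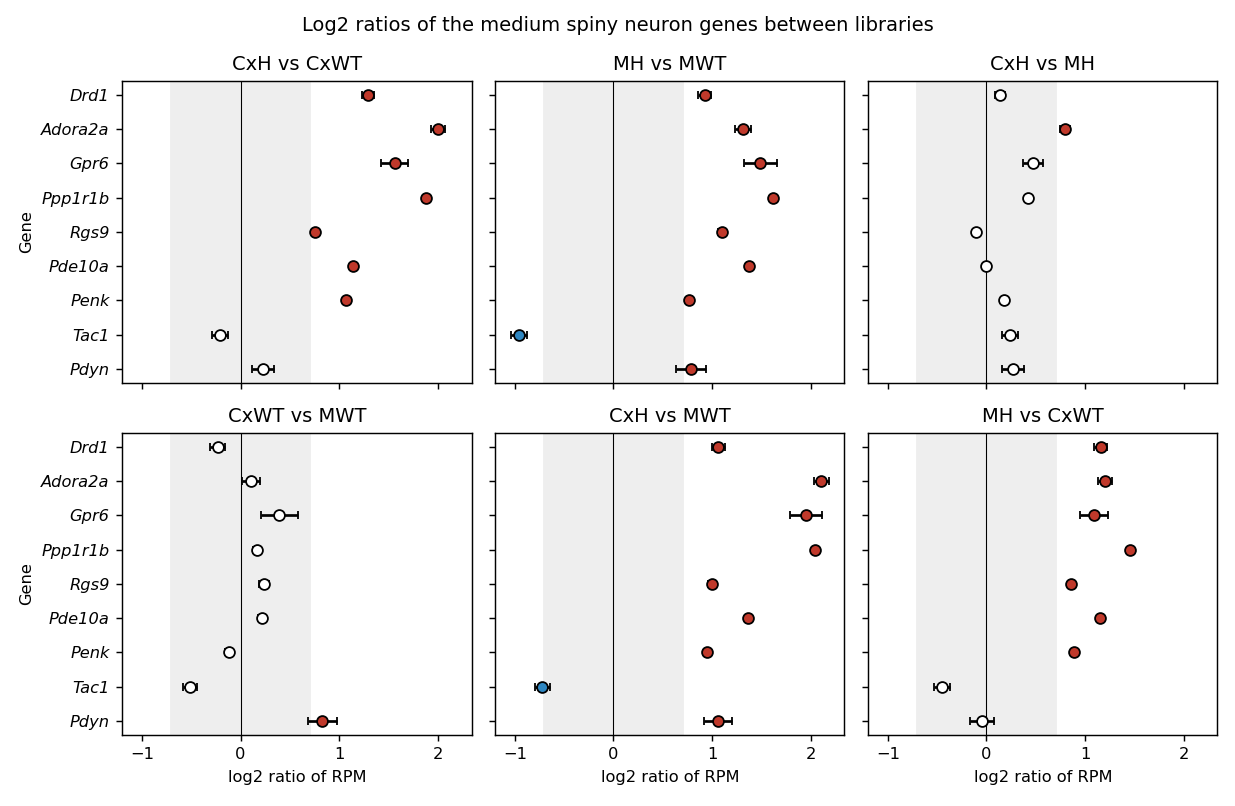
Log2 ratio of each gene in the 6 pairs of libraries, with bars of 1 standard error from counting. Red points were called higher and blue points lower in the library named first, white points were not called, and the grey band marks ratios under 0.7 in size. Between CxH or MH and CxWT or MWT most genes lie to the right of the band, where between 15.3% and 30.7% of all genes were called. In CxH vs. MH and CxWT vs. MWT, pairs of the same genotype label, all but 1 gene lie within it. In these pairs 3.50% and 7.54% of all genes were called.

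Ratios between genes within a library do not depend on its depth. The share of Adora2a in the reads of Adora2a and Drd1, receptors of the indirect and the direct pathway, was 57.0% in CxH (95% exact Clopper-Pearson interval 55.6 to 58.5), 45.7% in MH (43.9 to 47.4), 44.8% in CxWT (42.1 to 47.6) and 39.2% in MWT (36.3 to 42.1). CxH stood above the other libraries, and CxWT and MH had overlapping intervals. These transcripts differ in GC content, and with corrected ratios MH vs. MWT had 0.86 for Adora2a and 1.13 for Drd1, the reverse of the order without correction. The share of Tac1 in the reads of Tac1 and Drd1 was 26.2% in CxH and 24.9% in MH, against 50.1% in CxWT and 55.0% in MWT. Pdyn made up 16.2% of the reads of Pdyn and Drd1 in CxH, with overlapping intervals in MH (13.4 to 16.6) and MWT (13.8 to 18.9), and 28.8% in CxWT. Tac1 and Pdyn, both of the direct pathway, did not keep a fixed ratio to Drd1 within counting error.

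The genes shared by both kinds of neuron also shifted against each other. Rgs9 took 24.6% of the reads of Rgs9 and Ppp1r1b in CxH, 32.0% in MH, 41.5% in CxWT and 40.3% in MWT. The share of Pde10a in the reads of Pde10a and Ppp1r1b was 44.6% in CxH, 52.0% in MH, 57.2% in CxWT and 56.3% in MWT. Ppp1r1b thus took a larger part of both sums in CxH and MH. These shares carry no correction for GC content, which is highest in Ppp1r1b. With ratios corrected for GC content and length, that order did not hold in MH vs. MWT, where the log2 ratio was 1.07 for Ppp1r1b, 1.19 for Rgs9 and 1.27 for Pde10a. The ratio of Gpr6 to Adora2a varied less, with Gpr6 between 15.9% (CxH) and 20.4% (CxWT) of their reads.

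**Figure D3:**
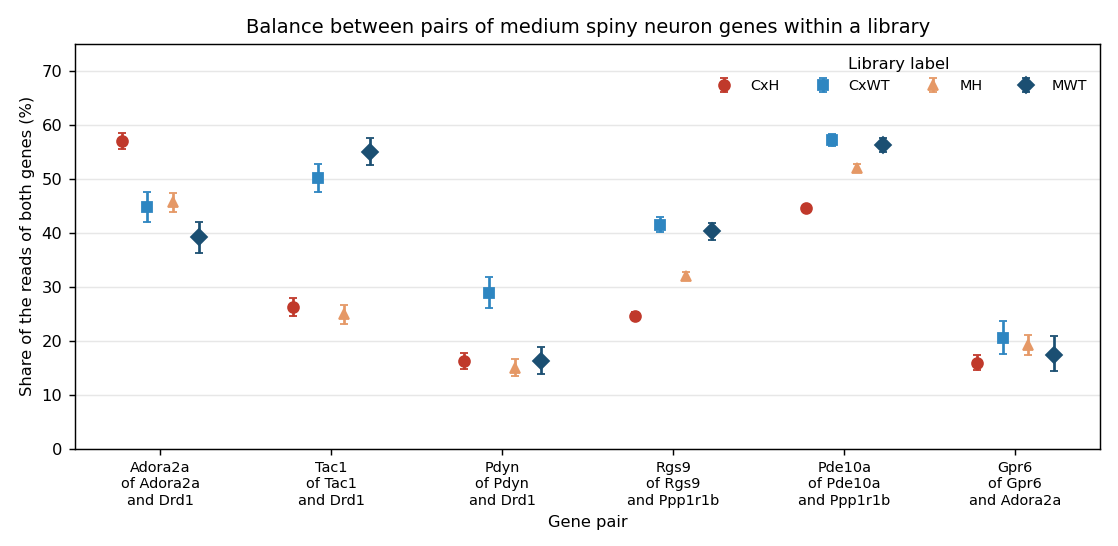
Share of the first gene in the summed reads of a pair of genes (%), by library label, with bars for the 95% exact Clopper-Pearson interval. Tac1 against Drd1 separates CxH and MH, at 26.2% and 24.9%, from CxWT and MWT, at 50.1% and 55.0%, and Adora2a against Drd1 is highest in CxH at 57.0%.

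Per length, taken as reads per kilobase of the longest protein-coding transcript per 1000000 aligned reads (RPKM), the level of Ppp1r1b (160.0) and Penk (155) in CxH stood above those of the other 7 genes. Pde10a had 33.4 RPKM, Rgs9 30.2, Adora2a 26.5, Tac1 17.4, Drd1 14.4, Gpr6 7.17 and Pdyn 4.10. In MWT Penk came first with 80.4 RPKM, ahead of Ppp1r1b with 38.9 and Tac1 with 28.7, while Drd1 had 6.88, Adora2a 6.16, Pdyn 1.97 and Gpr6 1.85. Tac1 moved from the sixth place in CxH to the third in MWT. The transcripts differed in GC content, from 44.9% in Tac1 and 45.7% in Drd1 to 58.8% in Adora2a and 61.0% in Ppp1r1b. Over the 10725 genes of known GC content with 100 or more reads in each library, Spearman's coefficient between log2 ratio and GC content was 0.461 in CxH vs. CxWT and 0.486 in MH vs. MWT, a description across genes, which share these libraries. With ratios corrected for GC content and length, 7 of the 9 genes were called higher in CxH vs. CxWT and 8 in MH vs. MWT, as without the correction. Over all genes the correction left 1045 higher and 1166 lower calls in CxH vs. CxWT, and 1066 and 1286 in MH vs. MWT.

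Sequence at the start sites was looked up for Drd1, Gpr6 and Rgs9, which were high in CxH and MH, and for Tac1, which was not. The RefSeq promoter table (build GRCm38.p6, 250 bases before to 50 after each start) held 9 windows of 6 of the genes, namely Drd1, Rgs9, Pde10a, Tac1, Gpr6 and Pdyn. Ppp1r1b, Adora2a and Penk had no entry. The windows were searched for the cyclic AMP response element (CRE) TGACGTCA, its core TGACG on both strands, which overlaps the whole element, the AP-1 site TGAGTCA on both strands and the TATA box TATAAA on the sense strand. Windows are printed 5′ to 3′ on the strand of the gene, with every match in capitals.
Drd1, chr13:54055609-54055908, minus strand: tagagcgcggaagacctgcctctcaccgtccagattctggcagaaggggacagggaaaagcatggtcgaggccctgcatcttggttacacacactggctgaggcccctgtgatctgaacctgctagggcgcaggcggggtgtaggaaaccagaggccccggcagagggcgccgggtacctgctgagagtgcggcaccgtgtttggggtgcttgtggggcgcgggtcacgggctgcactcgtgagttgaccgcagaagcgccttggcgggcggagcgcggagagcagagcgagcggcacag
Gpr6, chr10:41072241-41072540, minus strand: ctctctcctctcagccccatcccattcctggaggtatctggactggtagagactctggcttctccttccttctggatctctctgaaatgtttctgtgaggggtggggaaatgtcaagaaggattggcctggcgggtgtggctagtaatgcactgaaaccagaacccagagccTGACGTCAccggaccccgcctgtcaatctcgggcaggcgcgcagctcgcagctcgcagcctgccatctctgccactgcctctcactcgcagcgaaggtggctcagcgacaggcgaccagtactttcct
Rgs9, chr11:109298132-109298431, minus strand: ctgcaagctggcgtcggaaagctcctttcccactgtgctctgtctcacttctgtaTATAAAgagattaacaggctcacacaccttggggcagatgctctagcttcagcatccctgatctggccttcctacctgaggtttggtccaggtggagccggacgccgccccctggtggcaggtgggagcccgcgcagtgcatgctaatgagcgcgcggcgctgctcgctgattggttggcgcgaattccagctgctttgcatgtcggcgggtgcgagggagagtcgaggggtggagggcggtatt
Tac1, chr6:7554811-7555110, plus strand: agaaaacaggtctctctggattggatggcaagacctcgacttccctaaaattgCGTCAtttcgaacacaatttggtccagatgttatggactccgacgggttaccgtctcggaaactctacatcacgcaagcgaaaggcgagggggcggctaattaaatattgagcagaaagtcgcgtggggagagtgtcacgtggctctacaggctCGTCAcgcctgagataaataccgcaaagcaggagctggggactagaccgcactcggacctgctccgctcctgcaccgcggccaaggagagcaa

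The window of Gpr6 held the whole CRE, which begins 78 bases before the start site and which 1.79% of the 32851 windows in the table hold. Tac1 held the CRE core at 197 and 43 bases before the start site, and 20.8% of all windows hold that core. Rgs9 held a TATA box sequence 195 bases before the start, as 8.32% of windows hold anywhere. The printed Drd1 window and those of Pde10a and Pdyn held none of the motifs, and the AP-1 site was in none of the 9 windows of these 6 genes and in 5.20% of all windows. GC content was 65.7% in the printed window of Drd1, 58.7% in Gpr6, 60.3% in Rgs9 and 54.0% in Tac1, beside a median of 52.7% over all windows. A match describes the letters of the window and not a site in use.

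Genes around these in the same neurons were counted from lists. In these lists, rose and fell count genes called higher and lower by the thresholds above. Over all genes, 9.46% were called higher and 11.5% lower in CxH vs. CxWT, and 12.3% and 12.7% in MH vs. MWT. Of 18 signaling partners of medium spiny neurons, 10 rose and none fell in CxH vs. CxWT, with 2 ratios below 0. Again 10 rose and none fell in MH vs. MWT, with 1 ratio below 0. The median log2 ratios of the list were 0.79 and 0.71. Adcy5, the main adenylate cyclase of the striatum, rose at 0.91 ± 0.026 in CxH vs. CxWT and 0.88 ± 0.032 in MH vs. MWT. Drd2, the D2 dopamine receptor of the indirect pathway, which dopamine neurons also use as an autoreceptor, had 24.9 RPM in CxH and 19.2 in MH, against 18.4 in CxWT and 13.3 in MWT. Its log2 ratios of 0.43 ± 0.074 and 0.53 ± 0.091 were not called. Ptpn5, the striatal-enriched phosphatase, had 0.49 ± 0.023 and 0.55 ± 0.026, and Gnal, the stimulatory G protein subunit of these neurons, -0.019 ± 0.022 and -0.27 ± 0.023, none of them called. Rgs7bp, which anchors Rgs9 at the membrane, gave the lowest ratio in CxH vs. CxWT, -0.062 ± 0.028.

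Transcription factors of medium spiny neurons did not share a direction. In CxH vs. CxWT 5 of 13 rose and 5 fell, beside 9.46% and 11.5% of all genes. In MH vs. MWT 5 rose and 3 fell, beside 12.3% and 12.7%. Bcl11b (Ctip2), which is also a marker of deep cortical layers, rose at 1.79 ± 0.063 in CxH vs. CxWT and 1.37 ± 0.071 in MH vs. MWT. Foxp1, likewise expressed in cortex, rose at 1.48 ± 0.081 and 1.78 ± 0.099. Isl1, a factor of direct pathway neurons that is also found in the hypothalamus, fell at -1.67 ± 0.22 and -1.39 ± 0.20, with 1.58 RPM in CxH and 2.17 in MH, against 5.06 in CxWT and 5.70 in MWT. Outside the naming rule, and chosen after their values were seen, the other factors that rose in CxH vs. CxWT were Meis2, Rxrg and Dlx5, and those that fell were Foxp2, Ebf1, Six3 and Zfp503. In MH vs. MWT, Sp9, Rxrg and Dlx6 rose beside Bcl11b and Foxp1, and Foxp2 and Ebf1 fell beside Isl1.

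Of 6 receptors in the table for ligands that these neurons release or respond to, 1 rose and 3 fell in CxH vs. CxWT. The shares of all genes were 9.46% and 11.5% there. In MH vs. MWT 2 rose and 3 fell, beside 12.3% and 12.7% of all genes. Oprd1, the delta receptor on which enkephalins act, rose from 5.09 RPM in CxWT to 15.6 in CxH and from 4.35 in MWT to 13.4 in MH, log2 ratios of 1.62 ± 0.13 and 1.62 ± 0.14. Tacr3, a tachykinin receptor, fell at -2.95 ± 0.20 and -2.71 ± 0.18. Chosen after their values were seen, the others that fell in both were Oprk1, the kappa receptor on which dynorphin acts, and Tacr1, the receptor of substance P, and the other that rose in MH vs. MWT was Adora1. None of 5 enzymes that process neuropeptides was called in either pair, with ratios between -0.56 (Pam) and 0.40 (Pcsk2) in CxH vs. CxWT.

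The median ratios of the 9 genes had the sign of those of cortical markers and were smaller, while Tac1 had the opposite sign. Of the 12 cortical excitatory neuron markers, 10 rose in CxH vs. CxWT and 10 in MH vs. MWT, with medians of 3.09 and 3.38, against 1.14 and 1.10 for the 9 genes. Rasgrf2 had the lowest ratio of that list in CxH vs. CxWT, -0.24. Of the 13 markers of thalamus, midbrain and hypothalamus, 12 fell in CxH vs. CxWT and all 13 in MH vs. MWT, with medians of -4.30 and -3.88. Among those with at least 100 reads in CxH or CxWT, Prkcd, of the thalamus, had the highest ratio in CxH vs. CxWT, -2.82, and Oxt, of the hypothalamus, the lowest, with 1 read in CxH and 658 in CxWT. No marker of either list was without reads in any library except En1 of the midbrain in MH, named here after its values were seen. The median for MH vs. MWT was the same with En1 at the floor of 3 reads. As the mean of log2 RPM centred on each gene, the 9 genes stood at 0.64 in CxH and 0.37 in MH, and at -0.44 in CxWT and -0.56 in MWT. The cortical markers stood at 1.25 and 1.19 in the former and at -1.07 and -1.36 in the latter. None of the 9 genes was near the floor in any library, as the lowest level, that of Gpr6 in MWT, rested on 95 reads. Which part of the difference comes from striatal tissue and which from other tissue in the pools was not tested.

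**Figure D4:**
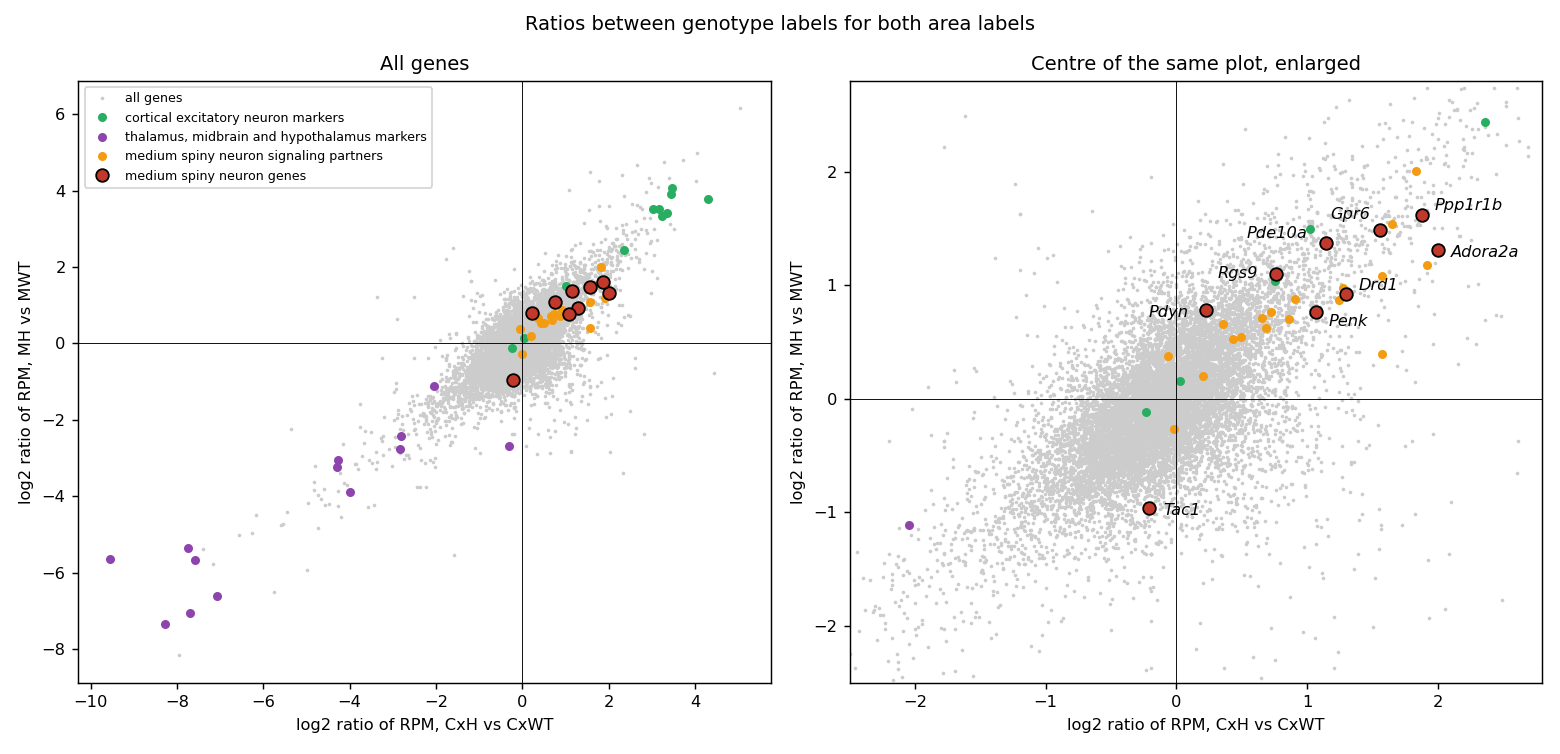
Log2 ratio of RPM in MH vs. MWT against that in CxH vs. CxWT for all genes (grey), the 9 medium spiny neuron genes (red), their signaling partners (orange), cortical markers (green) and markers of thalamus, midbrain and hypothalamus (purple), with the centre enlarged on the right. Except for Tac1, at -0.21 and -0.96, the 9 genes lie above 0 on both axes.

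Markers of hippocampus, which the dissection counts with M, summed to 141 RPM in CxH and 147 in MH, and to 120 in CxWT and 86.8 in MWT. Wfs1 alone gave 84.5, 81.1, 59.5 and 44.4 RPM of these sums in the same order. Of the 7 hippocampal markers in the table, 2 rose and 1 fell in CxH vs. CxWT. In MH vs. MWT 5 rose and none fell, though 2 had ratios below 0. For these and the lists that follow, the shares of all genes called higher and lower were 9.46% and 11.5% in CxH vs. CxWT. In MH vs. MWT they were 12.3% and 12.7%. The median log2 ratios of the hippocampal markers were 0.46 and 1.25. Wfs1 had the highest ratio in CxH vs. CxWT among those with at least 100 reads, 0.51, and Prox1 the lowest, -1.07. Oligodendrocyte markers were lower, with all 4 falling in CxH vs. CxWT and 3 in MH vs. MWT, at medians of -1.02 and -0.77. Their sum was between 4386 (CxH) and 8392 RPM (CxWT), and the highest ratio of the list in CxH vs. CxWT was -0.83 (Mbp). The 3 choroid plexus markers rose in CxH vs. CxWT, and 2 of them in MH vs. MWT, with medians of 1.52 and 1.04 and, in CxH vs. CxWT, ratios from 1.17 (Kl) to 2.25 (Ttr). Microglia markers had medians of 1.01 in CxH vs. CxWT (2 of 4 higher) and -0.50 in MH vs. MWT (2 of 4 lower), and lay between 0.63 (Cx3cr1) and 1.42 (C1qa) in the first pair. For astrocyte markers 1 of 4 was higher and 1 lower in CxH vs. CxWT, and 2 were lower in MH vs. MWT, at medians of 0.34 and -0.45, from -0.80 (Aqp4) to 1.11 (Gfap) in CxH vs. CxWT. Endothelial markers had medians of 0.65 and 0.014, with 1 of 3 higher in the first pair (Cldn5, 0.72, the highest, while Pecam1 was lowest at 0.48) and none called in the second. The part of these lists in the levels of the 9 genes was not tested.

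**Figure D5:**
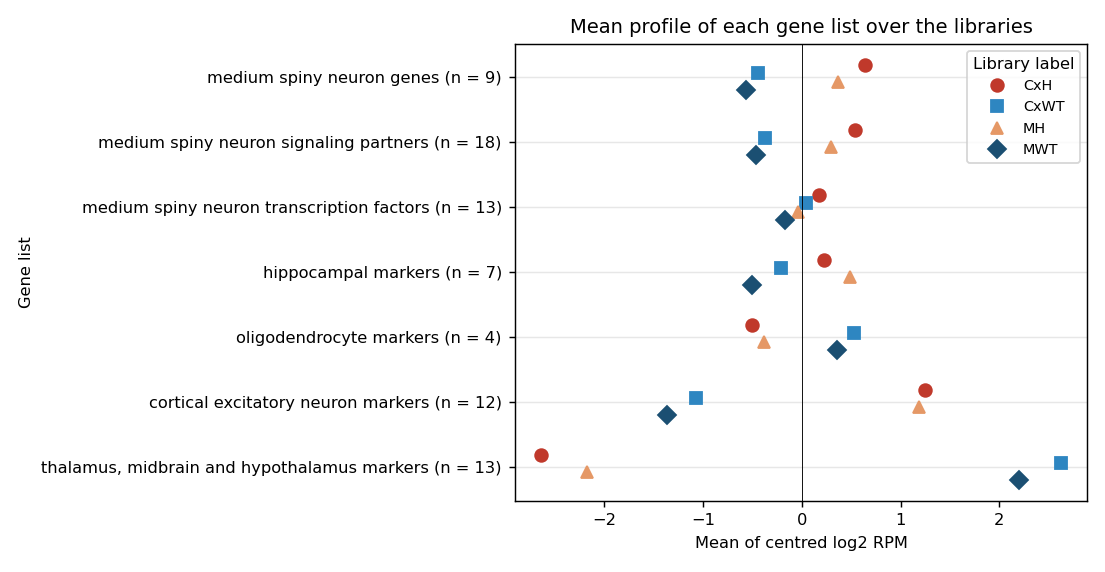
Mean over each gene list of log2 RPM, centred on the mean of each gene over the 4 libraries, by library label. The medium spiny neuron genes lie at 0.64 in CxH and 0.37 in MH and below 0 in CxWT and MWT, in the same order as the cortical markers, while the markers of thalamus, midbrain and hypothalamus have the opposite signs.

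Likeness of profile was measured as the Euclidean distance between centred log2 RPM over the 4 libraries, among 11002 other genes for which each library held 100 or more reads. The 5 genes nearest to the mean profile of the 9 were Faah, which breaks down the endocannabinoid anandamide (distance 0.066), 1110032F04Rik (0.070), Ppp2r2c, a regulatory subunit of protein phosphatase 2A (0.074), Diras2, a small GTPase (0.090), and Rilpl1 (0.094). Reads of Faah numbered 2427 in CxH and 1932 in MH, against 981 in CxWT and 746 in MWT. Among the 9 genes themselves, Adora2a, Gpr6 and Ppp1r1b lay close together, with each of the other two within its 100 nearest genes, and so did Drd1 and Penk, with a distance of 0.21. Rgs9, Pde10a, Pdyn and Tac1 had none of the others among their 100 nearest. The nearest of the 9 to Tac1 was Pdyn, at place 10051 of 11010 genes. With 4 libraries these distances describe the profile and were not tested. They carry no correction for GC content, which was highest of the 9 in Ppp1r1b (61.0%), Adora2a (58.8%) and Gpr6 (56.3%).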

How the data were processed

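RNA pooled from 7 mice was sequenced as 1 library for each of the labels CxH, CxWT, MH and MWT. The authors aligned reads of a SOLiD 3 Plus run to the mm9 genome with PASS (at most 2 mismatches) and deposited raw counts of reads aligned to a single gene, keeping genes with over 50% of the length covered. Per the labels and headers, all columns were mapped. The gene annotation is not given in the sources used here.

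Gene identifiers matched RefSeq symbols for 12690 of 12700 genes, and positions, length and GC content were taken from GENCODE vM1 on mm9. Counts were divided by the aligned reads that the study lists, to give RPM. A count of 0 was set to 1 for ratios only. The likelihood ratio test on Poisson counts was run over all genes. It was tried on simulated Poisson counts, which hold no variation between pools, so that this trial does not cover such variation. The members and lists were chosen with earlier results of these data known. Genes named were the 9 members, Ids, Drd2, Adcy5, Gnal, Ptpn5, Bcl11b, Isl1, Foxp1, the highest and lowest ratio of each list in CxH vs. CxWT where either library held 100 reads or more, and the 5 nearest profiles. A few genes of this rule are not reported here, though they entered the counts and medians.

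Alternatives were other scalings (column totals, TMM, DESeq2 size factors), a filter of 100 reads, a log2 threshold of 1, Benjamini-Hochberg adjustment, edgeR's exact test with assumed coefficients of variation of 0.1 and 0.2, 0.5 added to counts, and a cubic correction for GC content and length. Tools were edgeR 4.0.16, DESeq2 1.42.0 (R 4.3.3) and Python 3.11.15 with scipy 1.17.1, pandas 2.3.3, numpy 2.4.6 and matplotlib 3.10.9.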

Additional observations from a re-analysis of the deposited data

Results flagged for a closer look

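Ids was called in opposite directions in the areas as labelled, with a log2 ratio of -1.39 in CxH vs. CxWT and 1.24 in MH vs. MWT. The difference between these ratios was not tested, since each label has 1 library. None of the 9 medium spiny neuron genes was called in opposite directions in these pairs. Groups of 1 library could not be examined for outlying samples.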

How the results depend on the processing

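Of 540 recomputed log2 ratios of the 9 genes (9 genes, 6 pairs of libraries and 10 alternatives), 511 kept their direction and side of the threshold, 23 kept their direction but were no longer called, and 6 changed sign. With the GC content and length correction, the sign changed for Tac1 in CxH vs. CxWT (0.015), Pde10a in CxH vs. MH (0.12), and Adora2a (-0.28) and Ppp1r1b (-0.31) in CxWT vs. MWT. For Pdyn in MH vs. CxWT it changed with TMM factors (0.064) and DESeq2 size factors (0.065). None of these 6 was called in either setting. A log2 threshold of 1, stricter by construction, left 5 of the 9 calls in MH vs. MWT, and 0 in both CxH vs. MH and CxWT vs. MWT. An assumed coefficient of variation of 0.2 left 0 in both of the last pairs, and the GC content and length correction left 0 in CxH vs. MH; the cause was not tested. All other counts of called members stayed within 1.5 times the reported count under every alternative. The call of Tac1 in CxH vs. MWT was lost with TMM factors, DESeq2 size factors, a threshold of 1, a coefficient of variation of 0.2 and the GC content and length correction.

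Over all genes, TMM factors turned the split of higher and lower calls from 1201 and 1457 to 1447 and 1135 in CxH vs. CxWT and from 814 and 1129 to 1013 and 855 in MH vs. CxWT, where they moved the median log2 ratio by 0.11. In MH vs. MWT the split of 1556 and 1614 became 1774 and 1386 with TMM factors and 1377 and 1896 with column totals. Column totals turned it from 1980 and 1915 to 1609 and 2504 in CxH vs. MWT (a median shift of -0.11), from 309 and 135 to 257 and 183 in CxH vs. MH, and from 690 and 268 to 480 and 390 in CxWT vs. MWT. The GC content and length correction lowered the calls from 3895 to 2149 in CxH vs. MWT and from 958 to 428 in CxWT vs. MWT. A coefficient of variation of 0.2 lowered them from 444 to 191 in CxH vs. MH and from 958 to 487 in CxWT vs. MWT, and a threshold of 1 from 2658 to 1401 in CxH vs. CxWT and from 3170 to 1642 in MH vs. MWT. That threshold left 143 calls in CxH vs. MH, 295 in CxWT vs. MWT, 1064 in MH vs. CxWT and 1961 in CxH vs. MWT. No paired analysis was run, although by their labels CxH and MH share their mice, as do CxWT and MWT. A model with both the genotype and the area label as terms was not run either.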
